A study of Danio rerio with 12 samples.

Results

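The accessible landscape of heterozygous zebrafish melanocytes (MC_Het) was described from 3 ATAC-seq libraries, replicates 4, 5 and 6. Members were accessible regions, defined on chromosomes 1 to 25 of the GRCz11 assembly. Each peak interval was counted once with its strongest summit, narrow intervals (within 1 bp of 120 bp wide) were left out, and each list was cut to its 60900 strongest intervals by the −log10 of the peak caller's p-value, which is the length of the shortest list. Intervals of the 3 lists were then merged wherever they overlapped by 1 bp. Of the 123233 regions so formed, 17894 (14.5%) held an interval of all 3 libraries, 21577 (17.5%) held intervals of 2 libraries and 83762 (68.0%) came from 1 library.

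Each MC_Het library came from skin melanocytes of a separate adult zebrafish, sorted for mCherry. These fish carried BRAFV600E/+, p53+/lf and mitfa+/-, together with the mitfa:mCherry reporter. BRAFV600E was itself driven by the mitfa promoter, and the reporter sat on a MiniCoopR backbone that also carries a mitfa minigene. The other 9 libraries of the series were 1 of MC_Homo melanocytes (BRAFV600E, p53lf/lf, mitfa+/- and mitfa:mCherry) and 8 of melanoma (MA; BRAFV600E, p53lf/lf and crestin:EGFP, sorted for GFP). All 12 libraries therefore carried BRAFV600E and a loss-of-function allele of p53. All 3 MC_Het libraries, MC_Homo and MA replicates 4 and 5 belonged to sequencing run 2, and MA replicates 6 to 11 to run 3. The age of the fish beyond the adult stage was not given in the sources used here. Gene positions on GRCz11 were not used here, so the melanocyte label was not checked against marker genes and regions are given by position alone.

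Melanocytes are the black pigment cells of the zebrafish skin. They descend from the neural crest, and Mitfa is the transcription factor that specifies them. In ATAC-seq a transposase cuts DNA that nucleosomes leave exposed, so that cuts pile up at active promoters and enhancers. Promoters of broadly used genes are commonly open in many cell types, whereas distal enhancers tend to be open in fewer.

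The 3 libraries differed in depth. MC_Het replicate 4 held 7.74 M tags (M, mega; a tag is 1 read end), replicate 5 held 24.62 M and replicate 6 held 10.63 M. Their lists held 80522, 266537 and 93511 intervals. Narrow intervals made up 24.4%, 7.83% and 17.3% of these. The cut then kept 100%, 24.8% and 78.7% of the remaining intervals, down to a −log10 p of 3.26, 8.91 and 5.28. MC_Het replicate 5 thus stood apart as the deepest library and as the one from which most of the list was left out. The cut lists covered 8.95, 14.0 and 9.83 Mb. The 9 libraries outside MC_Het held between 6.05 and 11.54 M tags.

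Regions in all 3 held nearly equal shares of each list by construction. The lists were cut to 1 length, and each such region holds at least 1 interval of every library. In 92.6% of these regions each library held exactly 1 interval, so the SD below reflects only the additional intervals. Regions in all 3 took up 30.5% of the intervals of MC_Het replicate 4, 29.6% of replicate 5 and 30.8% of replicate 6, a mean of 30.3% ± 0.598 (SD, n = 3). The remaining regions were not spread evenly over the libraries. Replicate 4 alone gave 31138 regions, replicate 6 alone 27409 and replicate 5 alone 25215. The pair of replicates 5 and 6 shared 10536 regions that replicate 4 lacked, replicates 4 and 5 shared 7078 and replicates 4 and 6 shared 3963. The share of bases held in common by a pair (Jaccard index) was 26.9% for replicates 5 and 6, 21.7% for replicates 4 and 5 and 21.0% for replicates 4 and 6.

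Sharing fell steeply from the strongest intervals to the weakest. By −log10 p, every list was divided into deciles of 6090 intervals. In the strongest decile 81.7% ± 1.44 of intervals lay in regions of all 3 (SD, n = 3), against 31.0% ± 3.09 in the fourth decile and 7.06% ± 1.06 in the last. Of the 100 strongest intervals, 100%, 99% and 100% in replicates 4, 5 and 6 lay in regions of all 3. Of the 1000 strongest, it was 98.5%, 93.1% and 96.0%. The largest difference between libraries was in the second decile, where replicate 5 had 58.6% against 75.6% in replicate 4 and 73.8% in replicate 6. Since the merged lists themselves define how many libraries a region holds, these shares are descriptions and no test was made. With 3 libraries an exact sign-flip test cannot go below p = 0.25.

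**Figure D1:**
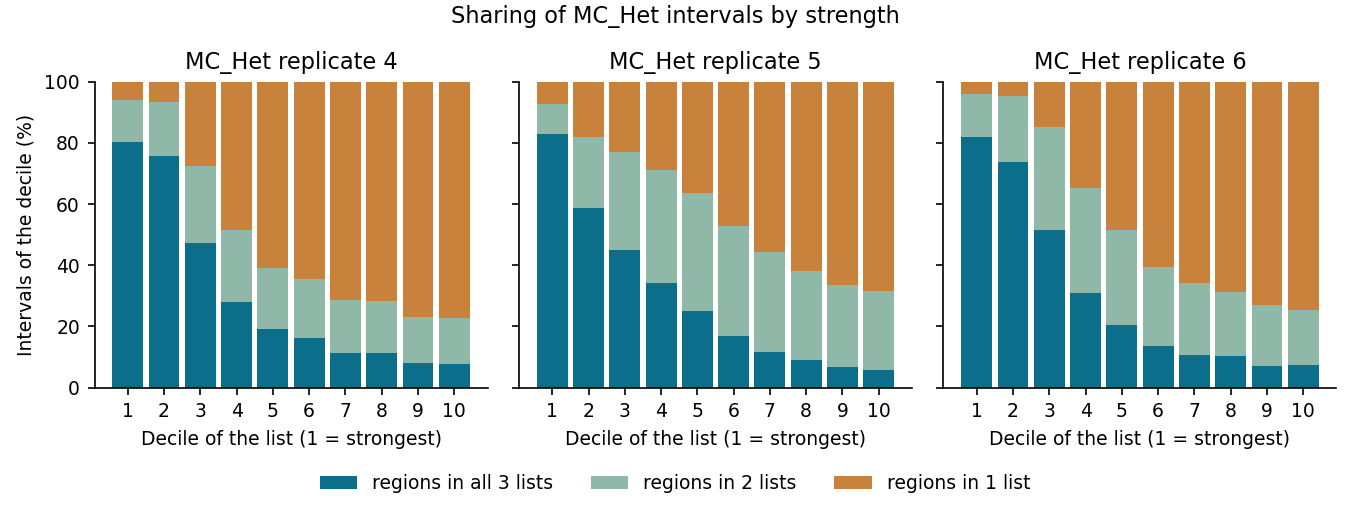
Bars show, for each MC_Het library, the percentage of intervals in each decile of its list of 60900 (x axis, 1 is the strongest decile by −log10 p) that lay in regions of all 3 lists, 2 lists or 1 list. The share in all 3 falls from a mean of 81.7% in the first decile to 7.06% in the last, and replicate 5 lies lowest in the second decile at 58.6%.

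The lists were cut by −log10 p, so strength and sharing are tied by the choice of regions, and the values below are descriptions. By each measure given here, regions in all 3 libraries were the stronger ones. Their median −log10 p was 12.3 in replicate 4, 33.7 in replicate 5 and 17.0 in replicate 6, against 5.79, 11.6 and 6.71 for regions of 1 library. Regions of 2 libraries lay between, with 6.86, 14.4 and 8.79. These values grow with depth, so the tags in the 100 bp at the summit were also expressed per M tags of the library. On this scale the median of regions in all 3 was 1.81, 1.75 and 1.88 tags per M in replicates 4, 5 and 6, whereas that of regions of 1 library was 0.904, 0.812 and 0.847. The log2 ratio of these medians was 1.09 ± 0.08 (SD, n = 3) and was positive in each library. In tags as counted, the median summit held 14, 43 and 20 tags in regions of all 3, and 7, 20 and 9 tags in regions of 1 library. In the shallower libraries a typical region of 1 library therefore rested on fewer than 10 tags.

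Fold enrichment followed the same order. It is the pileup at the summit over the background of the same library, after 1 was added to each. Its median was 7.33, 10.6 and 8.54 in regions of all 3 and 4.51, 5.53 and 4.85 in regions of 1 library (replicates 4, 5 and 6). A fold enrichment of at least 20 was reached by 2067, 3133 and 2134 intervals in regions of all 3 (11.1%, 17.4% and 11.4%). In regions of 1 it was reached by 94 of 31138, 264 of 25215 and 93 of 27409 intervals. Where the background was raised above that of the whole genome, it equalled a whole number of tags in 10 kb around the summit (100% within 0.02 tags in each library), and these 10 kb include the region's own tags. Fold enrichment therefore has a ceiling near 100, and among regions in all 3 it reached 91.7, 94.1 and 92.0. The background was raised around 60.3%, 64.4% and 63.8% of intervals in regions of all 3, and around 37.3%, 37.4% and 40.4% of those in regions of 1.

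By −log10 p, the same region ranked first in the 3 libraries. It spanned 275 bp at chr5:52427728-52428002 and held 336, 211 and 343 tags per M in replicates 4, 5 and 6. Its interval had the same width of 275 bp in each. Its fold enrichment was 65.0, 61.4 and 64.3, and between 66.3 and 69.1 over the 9 libraries outside MC_Het. The region with the next best mean rank, chr17:3995469-3995765, ranked 2 in every MC_Het list and held 325, 193 and 290 tags per M. The third, chr5:14634608-14634806, held 275, 163 and 251. Replicate 5 gave the lowest value of the 3 in each of these regions. The intervals on chromosome 17 and at chr5:14634608-14634806 also had the same width in each MC_Het library, 297 and 199 bp. Their fold enrichment in MC_Het was 61.2 to 71.0 and 76.2 to 77.3. Over the 9 other libraries it was 59.5 to 72.8 and 75.4 to 78.8. Beyond the authors' mapping quality limit, no filter for mappability was applied here. Whether the regions with the best mean rank are the most accessible sites of melanocytes was not tested.

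The other 7 regions among the 10 with the best mean rank were chr16:51444992-51445199, chr21:41867037-41867360, chr6:2906660-2906833, chr13:6219100-6219298, chr19:10052366-10052770, chr23:20846189-20846417 and chr20:47330482-47331701. All 10 were also called in each of the 9 libraries outside MC_Het. Of these 10, 9 had a single summit and were 174 to 405 bp wide. The tenth, on chromosome 20, was 1220 bp wide with 4 summits in each MC_Het library. Its fold enrichment was 14.0, 13.4 and 14.2, far below the 90.6, 87.5 and 87.9 of the 174 bp region on chromosome 6, although it held more tags at its summit (312, 235 and 347 per M against 217, 129 and 182). In replicates 5 and 6 it also held more than the region that ranked first.

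A region of average rank looked quite different. The 2 regions at the median of mean rank were chr16:55085959-55086174 and chr9:54598564-54599263. The first held 3.10, 2.19 and 1.03 tags per M in replicates 4, 5 and 6 and was called in 3 of the 9 other libraries. The second held 1.42, 1.26 and 2.63 and was called in all 9. Replicate 6 was the lowest of the 3 libraries in the first region and the highest in the second.

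Over the 17894 regions in all 3, levels at the summit ran in parallel between libraries. Pearson's r of log2 levels was 0.85 for replicates 4 and 5, 0.86 for 4 and 6 and 0.88 for 5 and 6. Spearman's rho was 0.75, 0.75 and 0.80. These are descriptions across regions, which are not independent replicates and share local base composition and mappability. In regions of 2 libraries r was lower, at 0.59, 0.51 and 0.67, but their levels spanned a narrower range. In replicate 4 the quartiles were 0.904 and 1.42 tags per M, against 1.16 and 3.23 in regions of all 3. Levels lay within 2-fold of the pair's median ratio in 89.6%, 94.2% and 93.1% of regions of 2. In regions of all 3 it was 89.7%, 90.5% and 92.8%. A narrow range of levels by itself keeps ratios near their median, so these shares do not show that agreement was alike. After each library was centred on its median over the regions in all 3, levels lay within 2-fold of each other across the 3 libraries in 14594 regions (81.6%), and over 4-fold apart in 267 (1.49%). The strongest summits of the 3 libraries lay within a median of 17 bp, and within 50 bp in 79.0% of regions. In the strongest decile of regions by mean rank the median was 1 bp, against 66 bp in the weakest.

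Intervals in regions of all 3 libraries were wider. Their median width was 151, 230 and 168 bp in replicates 4, 5 and 6, against 112, 172 and 123 bp for regions of 1 library and 127, 195 and 139 bp for regions of 2. The difference between regions of 3 and of 1 was 39, 58 and 45 bp, a mean of 47.3 ± 9.71 bp (SD, n = 3). These are widths of single intervals, since a merged region widens with every interval that enters it. A wider interval is more likely to overlap one of another library by 1 bp, so width and sharing are tied by the merging. The values are therefore descriptions. At equal strength the difference was smaller in the shallower libraries. Averaged over the deciles of each list it was 19.9, 66.2 and 22.0 bp, and it was positive in 9, 10 and 10 of 10 deciles. The exception was the strongest decile of replicate 4, with 148 bp in regions of all 3 and 150 bp in regions of 1. With narrow intervals kept the difference fell to 9.33 ± 7.57 bp, and among the 10000 strongest intervals of each list to 4 ± 25.2 bp, within its spread.

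**Figure D2:**
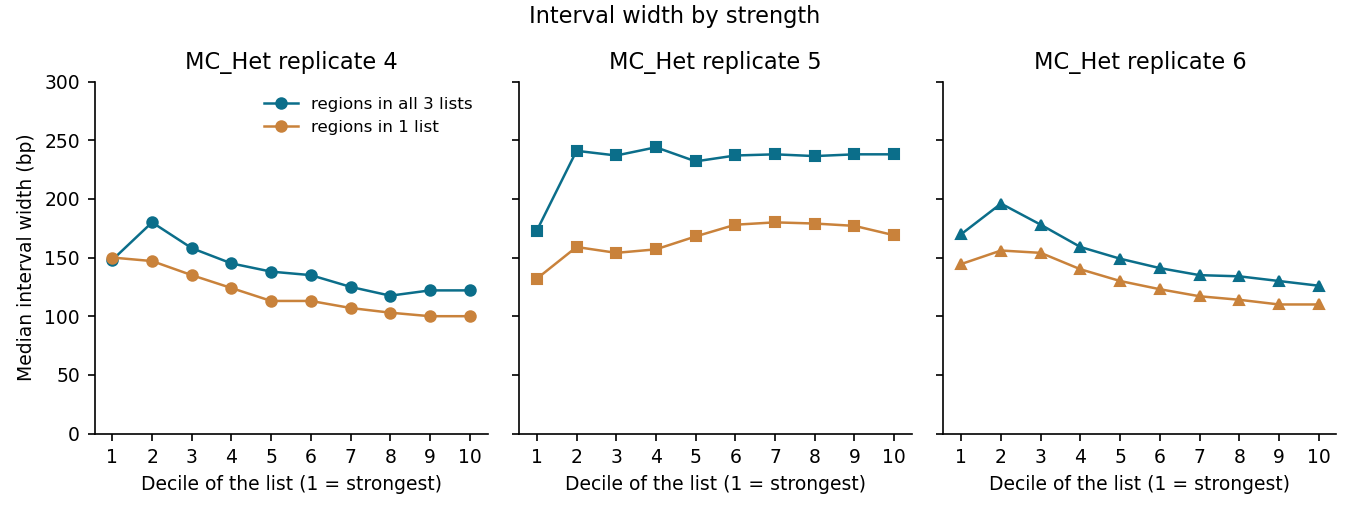
Points give the median interval width in bp (y axis) in each decile of the list (x axis, 1 is the strongest) for regions in all 3 lists and regions in 1 list, with 1 panel for each MC_Het library. Regions in all 3 are wider in 29 of 30 deciles, and in replicate 5, the deepest library, they lie between 232 and 244 bp from the second decile on.

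The tails of the width distribution differed more than the medians. Intervals of at least 300 bp made up 7.63%, 31.6% and 12.7% of those in regions of all 3, and 0.700%, 14.9% and 1.40% of those in regions of 1 (replicates 4, 5 and 6). Several summits were called in 3.65%, 18.5% and 6.81% against 0.128%, 11.9% and 0.795%. At the other end, 100 bp is the shortest interval in the lists. Intervals of this width made up 7.56%, 0.0388% and 3.98% of intervals in regions of all 3, and 38.7%, 0.646% and 26.9% in regions of 1. Replicate 5 had the most wide intervals and the fewest of 100 bp in both kinds of region. It was both the deepest library and the one cut most, to 24.8% of its intervals, and these cannot be told apart here. In lists thinned to 7.74 M tags, with widths as deposited, the difference between regions of 3 and of 1 was 52 ± 15.1 bp.

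The widest regions of all were long stretches with several summits. The region with the widest mean interval, chr25:1079869-1081744, measured 1866, 1876 and 1857 bp in replicates 4, 5 and 6 and held 6, 7 and 7 summits. The next were chr13:23485388-23486796, chr2:40602094-40603790, chr20:40104943-40106324 and chr20:21615825-21617139. The region on chromosome 2 varied most, with 1229, 1257 and 1675 bp, whereas the first region on chromosome 20 measured 1382 bp in each library. All 5 were called in each of the 9 other libraries. Their fold enrichment in MC_Het lay between 9.61 and 16.9. Level at the summit and width were only loosely related across regions in all 3, with a Spearman rho of 0.26 in replicate 4, -0.15 in replicate 5 and 0.23 in replicate 6, given as descriptions over the 17894 regions of 1 library each.

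The width filter divided a population of intervals. Those up to 4 bp wider than the removed widths made up 6.78%, 7.56% and 6.58% of the lists of replicates 4, 5 and 6, and those up to 4 bp narrower made up 3.34%, 1.49% and 3.47%. Among regions in all 3, 2628 (14.7%) had an interval just above the removed widths, up to 140 bp, in each library. Their median level was 3.64 tags per M, against 1.86 for all regions in all 3 (medians of the mean over the 3 libraries). A further 7625 (42.6%) had an interval over 150 bp in each library, with a median level of 2.18. Of the 2628 regions, 93.2% were found in MC_Homo, 78.9% and 89.0% in the MA libraries of run 2, and 73.7% to 83.7% in the 6 MA libraries of run 3. Of the 7625, it was 74.1%, 89.7% and 89.3%, and 84.4% to 89.3%. When intervals just above the removed widths, up to 140 bp, were left out as well, 11448 of 103528 regions were in all 3. When narrow intervals were kept, 32789 were.

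The strongest regions of 1 library had lost their counterparts in the other libraries to this filter. For each library the 2 regions with the best rank were chr6:53992055-53992179 and chr16:39511974-39512175 in replicate 4, chr6:4832149-4832270 and chr4:68887611-68887901 in replicate 5, and chr16:738228-738349 and chr16:24995246-24995367 in replicate 6. In every one of these 6, both other MC_Het libraries held a narrow interval, which the width rule had removed. Of the 6 regions, 5 were called in all 9 libraries outside MC_Het, and that at chr16:39511974-39512175 in 4. In the strongest decile of replicates 4, 5 and 6, 364, 451 and 246 regions came from 1 library. Of these, 90.4%, 98.9% and 99.2% overlapped a removed narrow interval of another MC_Het library. In the weakest decile it was 2.21%, 4.64% and 3.03%.

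Some regions missing from a cut list were present in the complete one. Of the 31138 regions of replicate 4 alone, 12502 (40.2%) overlapped an interval other than a narrow one in the complete list of replicate 5, and 1155 (3.71%) in that of replicate 6. Of the 27409 of replicate 6 alone, 12809 (46.7%) did so in replicate 5. Of the 25215 regions of replicate 5 alone, 1327 (5.26%) did so in replicate 6. The shortest list, that of replicate 4, was complete. Counted in the complete lists without narrow intervals, 21952 of the 123233 regions (17.8%) held an interval of all 3 libraries.

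In the lists used here, regions in all 3 were spaced much like the others. The median distance from a region's midpoint to that of the nearest other region of any kind was 2841 bp for regions in all 3, 2902 bp for regions of 2 and 2972 bp for regions of 1. Regions of replicates 4, 5 and 6 alone had medians of 2991, 3162 and 2784 bp, so the value of regions in all 3 lay within the range of the single libraries. The difference between regions of 3 and of 1 was -138 ± 189 bp (SD over the 3 libraries, n = 3) and did not exceed its spread. This SD reflects regions of 1 only, since the value of regions in all 3 is common to the libraries. The sign of the difference turned under 4 of the alternatives tried. Some alternatives exceeded their spread in either direction, with -529 ± 151 bp without intervals up to 140 bp and 361 ± 185 bp with complete lists. Both extremes were somewhat more frequent among regions in all 3. A neighbour within 1 kb was found for 28.0% of them, against 25.1% of regions of 2 and 25.2% of regions of 1, although it was 28.9% for regions of replicate 6 alone. No region within 20 kb was found for 3.17%, against 2.27% and 2.24%, and for 3.15% of regions of replicate 5 alone.

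**Figure D3:**
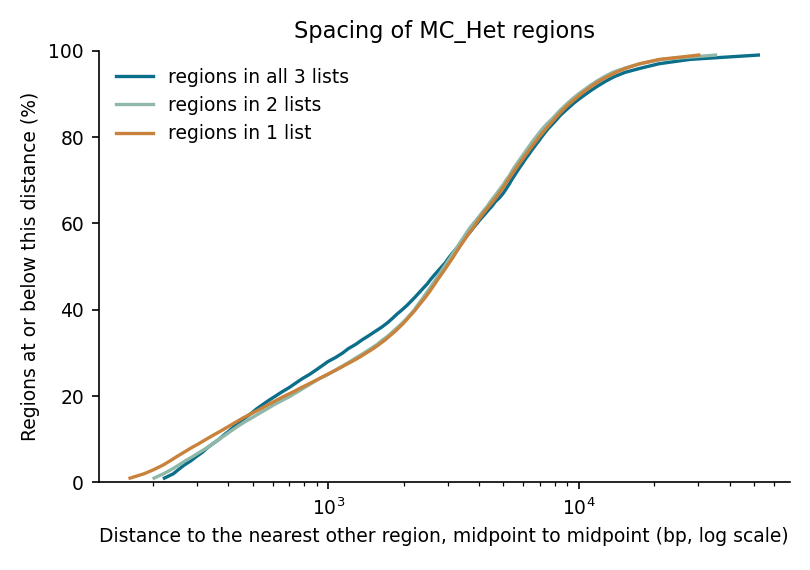
Lines give the cumulative percentage of regions (y axis, 1st to 99th percentile) by distance between midpoints to the nearest other region of any kind, in bp on a log scale (x axis). The 3 lines nearly coincide, with medians of 2841 bp for regions in all 3, 2902 bp for regions in 2 and 2972 bp for regions in 1.

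The kind of the neighbour differed more than the distance. The nearest neighbour was itself in all 3 libraries for 20.4% of the regions in all 3, for 15.3% of regions of 2 and for 12.6% of regions of 1, while 14.2% of all regions had such a neighbour. Within 1 kb these shares were 25.4%, 18.4% and 12.4%. Between neighbouring regions in all 3 along a chromosome the median gap was 34629 bp, with quartiles of 12512 and 85243 bp. Of 17869 gaps, 276 reached at least 500 kb, and 21 of these were on chromosome 4.

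Along the chromosomes, both regions in all 3 and regions of 1 library were unevenly packed. The variance of their number per 100 kb window was 1.81 times its mean for regions in all 3 and 3.03 times for the more numerous regions of 1. Of 13437 windows, 39.3% held no region in all 3 and the fullest held 12. Per 1 Mb the median was 12 regions in all 3, with quartiles of 7 and 18 and a highest value of 58. The 5 fullest windows of 100 kb were chr22:1-100000 with 12 regions, chr4:11600001-11700000 and chr21:45600001-45700000 with 11 each, and chr1:58900001-59000000 and chr3:1100001-1200000 with 10 each. In all, 11 windows held at least 10, and ties were taken in chromosome order. The window on chromosome 4 differed from the others in strength, as its regions had a median mean rank of 27875, against 8603 to 16990 in the other 4. At the other extreme, the longest stretches between neighbouring regions in all 3 were 2159 kb at chr17:21199422-23358254, 2011 kb at chr6:32834269-34845647, 1900 kb at chr1:16714956-18615067, 1848 kb at chr9:28399460-30247931 and 1727 kb at chr9:21276351-23002959. These stretches were not empty, since each held 10 to 45 regions of 1 library and 1 to 8 regions of 2. In the first and last Mb of the 25 chromosomes there were 29.0 regions in all 3 per Mb, against 12.7 in the rest, and regions of 1 library were also denser there, with 105 against 60.6 per Mb.

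All 25 chromosomes carried regions in all 3, at 13.3 per Mb overall. The density was lowest on chromosome 4 (9.28 per Mb) and highest on chromosome 3 (16.2 per Mb). The percentage of a chromosome's regions that were in all 3 ranged from 11.98% on chromosome 9 (95% Wilson interval 11.1 to 12.9) to 16.3% on chromosome 3 (15.4 to 17.3), around 14.5% overall. The interval lay above the overall value for chromosomes 3, 4, 20 and 25 and below it for chromosomes 7, 9, 15 and 24. These intervals cover counting error only, and neighbouring regions are not independent. Measured per library, 26.2% ± 0.534 of chromosome 9 intervals lay in regions of all 3 (SD, n = 3), the lowest value of any chromosome, and 27.5% ± 0.855 of chromosome 24 intervals. On chromosome 3 it was 33.1% ± 2.35, on chromosome 25 32.8% ± 0.690 and on chromosome 20 32.3% ± 0.901.

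**Figure D4:**
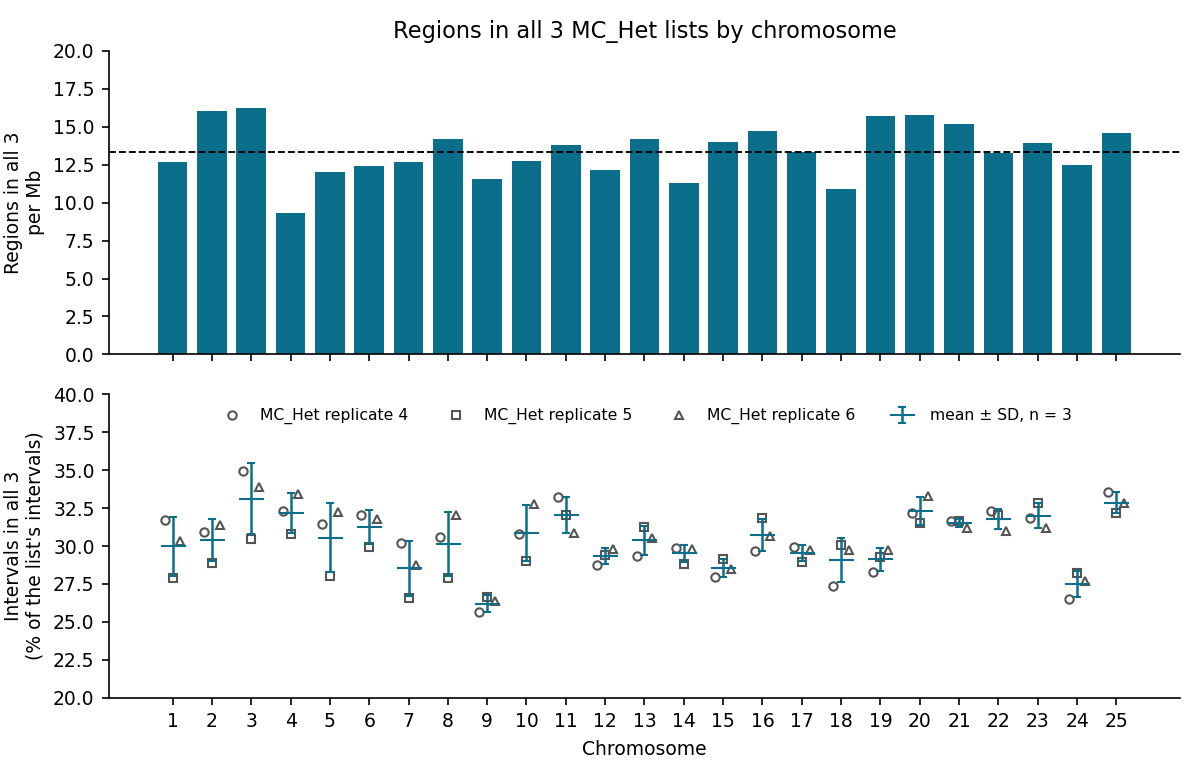
The upper panel shows regions in all 3 lists per Mb of each chromosome (bars), with the value over all chromosomes, 13.3, as a dashed line. The lower panel, whose axis starts at 20%, shows the percentage of each library's intervals that lay in regions of all 3 (open symbols, 1 for each MC_Het library) with mean ± SD (n = 3), lowest on chromosome 9 at 26.2% and highest on chromosome 3 at 33.1%.

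The order of the chromosomes was only partly shared between libraries. Spearman's rho of these percentages over the 25 chromosomes was 0.80 for replicates 4 and 6, 0.50 for 4 and 5 and 0.42 for 5 and 6, as a description of values that rest on the same regions. Between regions of all 3 and regions of 1, the log2 ratio of a chromosome's shares ran from -0.35 to 0.23. Its SD over the 25 chromosomes was 0.13, where counting error alone gives 0.06. When regions of each library alone were used in turn, this SD was 0.159 ± 0.00634 (SD over the 3 libraries). Chromosome 4 was uneven along its length. Its first 27 Mb, a split chosen here, held 14.0 regions in all 3 per Mb, and the rest held 6.81. Regions of 1 library dropped further, from 77.7 to 18.5 per Mb, so that 12.6% of regions were in all 3 in the first part and 21.8% in the second.

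The 9 libraries that had no part in choosing the regions allowed a test. A region was counted as found where the complete list of a library held an interval overlapping it by 1 bp. Regions in all 3 were wider targets, with a median merged width of 250 bp against 132 bp for regions of 1. They were also stronger, with 1.81 tags per M at the summit against 0.854 (mean of the 3 medians). A positive difference was therefore likely beforehand, and the test below speaks only to its sign across libraries. Regions in all 3 were found in 76.7% ± 4.59 (SD, n = 9), regions of 2 in 42.7% ± 5.39 and regions of 1 in 18.5% ± 3.27. The difference between regions of 3 and of 1 was 58.2 ± 2.19 percentage points, with a range of 53.0 to 60.5, and was positive in 9 of 9 libraries. A two-sided exact sign-flip permutation test over all sign flips gave p = 0.00390625, the smallest possible, which stayed the same after Benjamini-Hochberg adjustment over 3 tests. The differences between regions of 3 and 2 (34.0 points) and of 2 and 1 (24.2 points) were positive in 9 of 9 libraries as well, with the same exact p and adjusted p. Where the midpoint had to lie inside an interval of the library, regions of 3 and of 1 differed by 55.2 ± 3.67 points (SD, n = 9). Deciles of an MC_Het list set side by side regions of like rank in that list only. Strength in the other MC_Het libraries was not matched, as a region of 1 library held no kept interval there. Within deciles, the difference between regions of 3 and of 1 was 39.4 points (exact permutation p = 0.00390625). This difference was 29.3 ± 9.33 points in the 3 libraries of run 2 (SD, n = 3) and 44.4 ± 1.18 in the 6 of run 3 (SD, n = 6). In run 2 it ran from 18.6 points in MC_Homo to 35.0, and in run 3 from 42.5 to 45.7. The runs were farthest apart in the strongest decile. There the libraries of run 2 found 96.4% of regions in all 3 and 91.7% of regions of 1, a difference of 4.66 points, whereas those of run 3 found 87.5% and 41.5%, a difference of 46.0 points. In this decile of the list of MC_Het replicate 6, all 3 libraries of run 2 found regions of 1 more often. The means were 97.7% for regions of 1 and 96.7% for regions in all 3. In the list of replicate 5, MC_Homo did so (98.2% against 97.4%). In that list MC_Homo also did so in decile 2 (84.4% against 80.3%) and decile 3 (65.9% against 59.6%). Counting each library in each decile of each list, regions in all 3 were found less often in 6 of 90 values of run 2. In run 3 it was 0 of 180. Narrow intervals of the 9 libraries counted as found here. In the weakest decile the shares were 42.4% and 12.8% in run 2 and 52.9% and 15.1% in run 3. Run 2 pools MC_Homo with 2 MA libraries. In the weakest decile MC_Homo found 22.4%, 23.0% and 24.3% of the regions in all 3 (lists of replicates 4, 5 and 6). MA replicate 4 found 49.5%, 54.5% and 56.6%, and MA replicate 5 found 49.3%, 49.7% and 52.6%. The parts of run and of cell group in these differences were not tested.

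**Figure D5:**
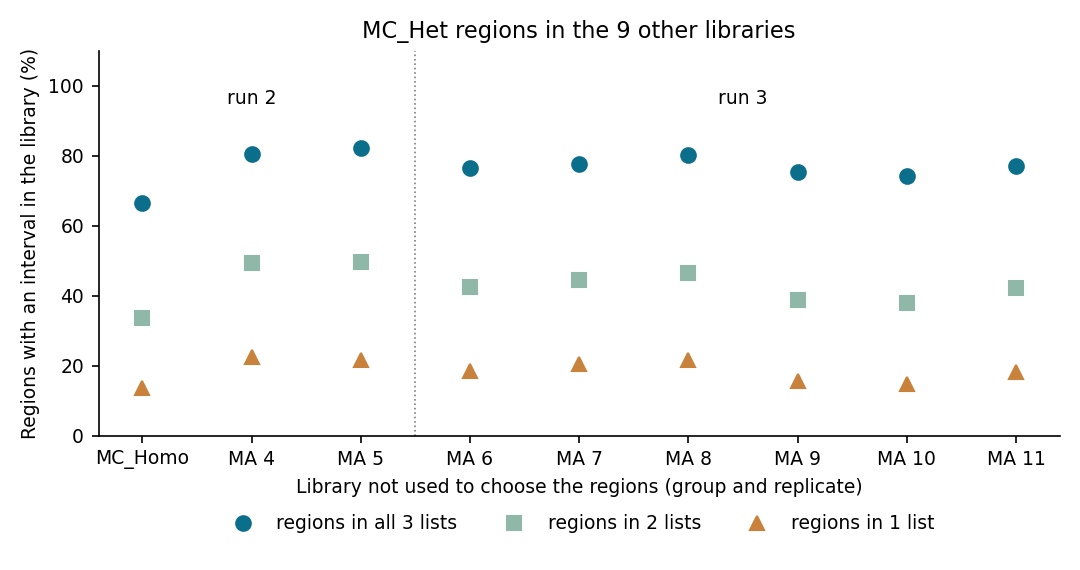
Each column is 1 of the 9 libraries not used to choose the regions, 1 MC_Homo and 8 MA, with run 2 left and run 3 right of the dotted line. Symbols give the percentage of regions in all 3, in 2 or in 1 of the MC_Het lists (y axis) that overlapped an interval of that library, which for regions in all 3 lies between 66.5% in MC_Homo and 82.2% in MA replicate 5.

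The MC_Homo library found the fewest regions, with 66.5% of those in all 3, 33.5% of those in 2 and 13.5% of those in 1. The MA libraries found 74.3% to 82.2% of the regions in all 3. MC_Homo also had the shortest complete list, with 57910 intervals, so all 9 lists were cut to 42364 intervals without narrow ones. MC_Homo then found 61.7% of the regions in all 3, and the 8 MA libraries found 68.1% ± 2.07 (SD, n = 8), with a range of 65.1% to 72.0%. MC_Homo was a single library, so this difference was not tested. With complete lists, the 2 MA libraries of run 2 found 81.3% of the regions in all 3 and the 6 of run 3 found 76.9%. These lists differed in length, with 93577 and 88846 intervals in MA replicates 4 and 5 and 62916 to 87463 in run 3. At 42364 intervals, MA replicates 4 and 5 found 68.0% and 72.0%, and the libraries of run 3 found 65.1% to 68.5%, so the ranges overlapped.

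Of the 17894 regions in all 3, 7695 (43.0%) were found in all 9 other libraries and 632 (3.53%) in none. Among regions of 1 library it was 1106 (1.32%) and 40959 (48.9%). The 7695 regions were the stronger, with 2.87 ± 0.0424 tags per M at the summit (mean of the 3 medians ± SD, n = 3), against 1.44 ± 0.0634 for the 9567 regions found in 1 to 8 libraries and 1.04 ± 0.0873 for the 632. The intervals of the 632 regions were narrower than those of the 7695, with medians of 133, 249 and 164 bp against 181, 255 and 201 bp in replicates 4, 5 and 6. Those of the 9567 regions measured 139, 211 and 153 bp, so width did not fall steadily with detection. As merged regions, the median width was 272 bp for the 7695, 231 bp for the 9567 and 282 bp for the 632. In MC_Homo but no MA library 204 regions (1.14%) were found, against 3.36% of regions of 2 and 3.00% of regions of 1. In all 8 MA libraries but not in MC_Homo 2567 of the 17894 were found. Among the 21577 regions of 2 it was 2305, and among the 83762 regions of 1 it was 2785. MC_Homo was a single library with the shortest complete list, so these counts are not read as differences in accessibility. All 3 libraries of run 2 but none of run 3 held 378 regions (2.11%), and all 6 of run 3 but none of run 2 held 25. These 2 counts are not a like comparison, since 1 requires 3 libraries and the other 6. The regions were also chosen from libraries of run 2. Such shares among regions of 2 and of 1 are not given here, so 2.11% is not read as particular to regions in all 3. Of the 378, 28.3% had an interval just above the removed widths, up to 140 bp, in each MC_Het library, against 14.7% of all regions in all 3. Their median level was 4.91, 1.67 and 3.86 tags per M in replicates 4, 5 and 6, so replicate 5 lay lowest. The part of width and of run in these 378 regions was not tested.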

How the data were processed

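ATAC-seq peak lists of 12 libraries were used, with groups, replicates and runs taken from the sample labels. According to the study's methods, the authors trimmed reads with CutAdapt, aligned them to GRCz11 (danRer11) with BWA, kept proper pairs with a mapping quality over 30, removed duplicates, and called peaks per library with MACS2 without control (effective genome size 1000000000 bp, shift -50 bp, extension 100 bp, duplicate limit 999). Versions were not given in the sources used here. The fold enrichment at the summit was deposited as a ratio to the library's own background. The −log10 p and −log10 q (0.05 at most for q) of the Poisson test were deposited beside it.

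Pileup and background were solved from fold enrichment and −log10 p, and 100% of MC_Het pileups were whole within 0.02. Among the 9 other libraries the share was lowest in MA replicate 11 (78.1%) and MA replicate 4 (88.9%). The lowest depth given, 6.05 M tags, is that of MA replicate 11. The most frequent background gave the number of tags. Each list has its own depth and threshold, so a region that a list lacks may have been open but under that threshold. Levels were taken from called intervals only, and read counts were not used here. Classes of regions were compared as medians per MC_Het library with SD (n = 3), and detection in the 9 other libraries by a two-sided exact sign-flip permutation test. Wilson intervals are at 95%.

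Regions were named by rank, width, density or gap, as the 10 best mean ranks, 2 best of each single library, 5 widest, 2 median, 5 fullest windows and 5 longest stretches. Members and lists were chosen with earlier results of these data known. Gene positions on GRCz11 were not used here, so promoter shares and pigment cell gene lists were not analysed here, and no sequences are shown. Scripts were tested on simulated data and run with Python 3.11.15, numpy 2.4.6, pandas 2.3.3 and scipy 1.17.1. Alternatives covered the width filter, list length, ranking, threshold, overlap, summits, depth and each replicate.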

Additional observations from a re-analysis of the deposited data

Results flagged for a closer look

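A signal lay in intervals that the comparisons did not use. Among the narrow intervals (within 1 bp of 120 bp wide) left out of every list, 4749 had an identical start and end in all 3 MC_Het libraries, whereas of the 60900 intervals kept per library 867 did. Of the same 4749 coordinates, 82.2% were listed in MC_Homo, 77.2% in MA replicate 4 and 77.3% in MA replicate 5, all of run 2, and 12.9% to 17.0% in the 6 MA libraries of run 3. Melanoma libraries of run 2 thus lay near MC_Homo and those of run 3 far below. The libraries of run 3 also held fewer narrow intervals in total, 4112 to 5642, against 15546 in MC_Homo and 14478 and 13130 in MA replicates 4 and 5. A list with fewer than 4749 narrow intervals cannot hold all of these coordinates. The part of the number of narrow intervals in the shares was not tested. Median fold enrichment of narrow intervals was 11.8, 5.78 and 9.40 in MC_Het replicates 4, 5 and 6. In the 8 MA libraries, 4 measures of detection were searched for a library far from the others and 0 had one (chance gives about 1 in 20).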

How the results depend on the processing

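Regions in all 3 were found more often in the 9 other libraries than regions of 1 library under every alternative run, with differences of 33.2 to 60.2 percentage points. They also stayed stronger, by 5.98 to 29.5 in median −log10 p. Every alternative again took regions from intervals that had passed a strength threshold, so this second result was no independent check. The width difference stayed positive but ranged from 4 to 84.7 bp. The difference in distance had no stable sign, although under some alternatives it exceeded its SD. Leaving out intervals up to 140 bp and comparing widths within deciles were chosen after seeing the data.

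With narrow intervals kept, 32789 of 147406 regions were in all 3, from lists of 80522 intervals. They held 41.7% of a list, and the width difference was 9.33 bp. The distance difference was 155 ± 227 bp (SD over the 3 libraries, as below) and the SD of chromosome ratios 0.120. Complete lists gave a share of 26.1%, a distance difference of 361 ± 185 bp and an SD of 0.133. The 20000 strongest intervals gave 9561 regions, 48.3%, 29.5 bp in width, -663 ± 876 bp in distance and 0.144. The 10000 strongest gave 5293 regions, 53.2%, 29.5 in −log10 p, 4 bp in width, 260 ± 1498 bp in distance and 0.168. Ranking by fold enrichment gave a distance difference of 21.8 ± 327 bp and an SD of 0.141. A −log10 q of at least 5 gave 10671 regions, 45.6%, 32.3 bp in width, -802 ± 464 bp in distance and 0.132, from lists of 23682 intervals. Intervals of 100 bp on either side of the summit gave 29.3% and -354 ± 158 bp in distance. Leaving out intervals up to 140 bp gave 11448 regions, 24.5%, 84.7 bp in width, -529 ± 151 bp in distance and 0.172. The lists then held 48344 intervals. Lists thinned to 7.74 M tags gave 27.4% and 0.143. Within deciles the width difference was 36.0 bp. In run 2 alone, detection differed by 57.2 points (exact permutation p = 0.25, the smallest that 3 libraries allow). The causes of these changes were not tested.

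With 1 MC_Het library left out, regions shared by the remaining pair numbered 21756 to 33662 (the latter without replicate 4). The share was 36.1% to 44.6%, the width difference 32.5 to 40 bp and the SD of chromosome ratios 0.112 to 0.125. Without replicate 4 the lists were cut to 77338 intervals, against 60900 without replicate 5 or 6, so list length changed as well. Leaving out any 1 of the 9 other libraries gave 57.9 to 58.8 points. No paired analysis was possible because equal replicate numbers in MC_Het and MA name different fish, and the test already compares regions within each library. Width with intervals set to 100 bp around the summit could not be had, as they are all of 1 width. The median summit of regions of 1 library held 7, 20 and 9 tags in replicates 4, 5 and 6, which limits the precision of their levels. Thinned lists still held 91261 such regions.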
